A study of Homo sapiens with 28 samples.

Results

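Accessible chromatin at the genes of interleukin-6 signalling was examined in human multiple myeloma cell lines. Members were all regions of the count table whose nearest annotated transcription start belonged to IL6, IL6R, IL6ST, JAK1, JAK2, STAT3, SOCS1, SOCS3 or PTPN6, which gave 52 of the 154985 regions measured. JAK1 had 14 regions, IL6R 9, IL6 8, STAT3 6, PTPN6 5, JAK2 and SOCS3 3 each, and IL6ST and SOCS1 2 each. Of these, 28 lay within 2.5 kb of an annotated start, internal starts included, and are called promoter regions, while 24 lay farther away and are called distal. Chromatin was profiled by ATAC-seq, in which a transposase cuts open DNA, in 22 untreated established myeloma lines (H1112, Karpas620, KMS11, KMS12BM, KMS12PE, KMS18, KMS20, KMS21BM, KMS26, KMS27, KMS28, KMS34, L363, LP1, MM1S, OCIMY5, OPM2, PCM6, PE1, RPMI8226, U266 and XG-6). A lenalidomide library, from cells given 10 µM of this cereblon-binding drug and collected on day 3, was made for 6 of the lines, namely Karpas620, KMS27, L363, MM1S, OPM2 and RPMI8226. All lines were grown in serum-containing medium, and the growth protocol names no added cytokine. Each line was assayed once per condition, so no value has an error within a line, and lines were the unit of every comparison.

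Interleukin-6 is a growth and survival factor of myeloma cells. It binds the receptor chain encoded by IL6R, the pair then recruits the signal-transducing chain gp130 encoded by IL6ST, and the receptor-bound kinases JAK1 and JAK2 phosphorylate the transcription factor STAT3. SOCS1 and SOCS3 are inhibitors that STAT factors induce and that feed back on the kinases, and PTPN6 encodes the phosphatase SHP-1, which removes phosphate groups from JAK kinases and other signalling proteins in blood cells. PTPN6 is transcribed from an upstream promoter, described mainly in epithelial cells, and a downstream promoter, described mainly in blood cells.

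The sequences under the regions that moved with lenalidomide, and under the start of the ligand gene, are given here from the GRCh37 reference, each 5′ to 3′ and in lower case, with matches to the motif named for that stretch in capitals. On chromosome 12, PTPN6 spans 7055631 to 7070479 on the plus strand in GENCODE. The stretch directly upstream of its first exon, chr12:7055331-7055630, held 3 matches to GGGAA, the core bound by Ikaros family factors, on either strand.
PTPN6, upstream of the first exon: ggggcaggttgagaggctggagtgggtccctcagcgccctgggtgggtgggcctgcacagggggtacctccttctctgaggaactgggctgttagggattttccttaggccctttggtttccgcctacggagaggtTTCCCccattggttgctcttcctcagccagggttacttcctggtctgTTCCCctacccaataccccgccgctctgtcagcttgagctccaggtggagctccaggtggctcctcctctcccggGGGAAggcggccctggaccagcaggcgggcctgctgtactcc
The centre of a PTPN6 region inside the gene, chr12:7062751-7063050, held 2 matches to GGGAA. Its first 14 bases belong to an exon without coding sequence and the rest is intron.
PTPN6, intragenic region: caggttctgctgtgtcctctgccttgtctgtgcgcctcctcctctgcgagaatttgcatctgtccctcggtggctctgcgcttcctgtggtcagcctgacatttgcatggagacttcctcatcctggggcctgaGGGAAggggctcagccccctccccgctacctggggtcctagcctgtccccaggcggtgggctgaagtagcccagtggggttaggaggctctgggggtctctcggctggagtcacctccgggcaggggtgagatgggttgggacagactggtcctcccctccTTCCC
The same region also held 1 match to TTCNNNGAA, the motif of STAT factors, within chr12:7063181-7063281, and the end of this match is at the same time a GGGAA match. Another GGGAA match in this stretch is left in lower case.
PTPN6, intragenic region, STAT-type match: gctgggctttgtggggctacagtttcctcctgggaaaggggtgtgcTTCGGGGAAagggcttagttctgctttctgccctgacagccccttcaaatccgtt
The region upstream of SOCS1, chr16:11352580-11352879 shown on the minus strand on which SOCS1 lies, held 3 matches to a pair of GAAA letters spaced by 2 bases, the half-sites of the interferon response element (called the interferon-type pair here). The first 2 of these overlap each other and form 1 run of capitals.
SOCS1, upstream region: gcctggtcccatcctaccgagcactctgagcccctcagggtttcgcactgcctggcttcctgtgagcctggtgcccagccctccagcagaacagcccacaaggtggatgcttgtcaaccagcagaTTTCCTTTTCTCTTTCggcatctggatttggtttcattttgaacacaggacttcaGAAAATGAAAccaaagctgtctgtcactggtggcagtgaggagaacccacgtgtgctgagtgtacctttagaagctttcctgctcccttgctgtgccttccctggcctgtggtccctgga
Upstream of the RefSeq start of IL6 and inside the longer span that GENCODE gives this gene, chr7:22766569-22766765 on the plus strand was searched for GGGAA, with 2 matches, and for TTCNNNGAA, with none.
IL6, start region: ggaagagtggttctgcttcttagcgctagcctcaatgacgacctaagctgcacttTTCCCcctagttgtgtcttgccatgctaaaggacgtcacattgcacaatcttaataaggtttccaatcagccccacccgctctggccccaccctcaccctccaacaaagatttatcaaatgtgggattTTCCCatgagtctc
These matches are letter matches on both strands and not measured binding. In windows of 300 bases at the centre of each region, TTCNNNGAA was present in 6 of 52 members (11.5%) and in 8.73% of all regions. The interferon-type pair was present in 8 members (15.4%) and in 9.60% of all regions, and GGGAA in 35 members (67.3%) and in 56.1% of all regions. All 9 genes were found among the RefSeq promoters of GRCh38.p14, with 16 entries of 300 bases. GGGAA was in 13 of these (81.2%) and in 65.0% of all 35116 entries, the interferon-type pair in 1 (6.25%, at SOCS1) and in 3.57% of all, and TTCNNNGAA in 0 of them and in 7.66% of all.

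The libraries held between 1599857 and 5564534 counts in regions for untreated lines, with a median of 2239819, and between 2168680 and 4248017 after lenalidomide. Levels are given as CPM, the counts of a region scaled to 1000000 per library, which are not corrected for copy number, and 95% Wilson intervals of single libraries cover counting error only. As a check of the cell type, the start regions of 6 of 7 plasma cell genes (SDC1, CD38, TNFRSF17, PRDM1, XBP1, IRF4 and SLAMF7) were called in at least 11 of the 22 lines, and their summed level was between 126 and 331 CPM. The start regions of T cell and monocyte genes were called in at least 11 lines for 0 of 3 and 0 of 2 genes, those of B cell and stromal genes for 1 of 3 each.

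The pathway's regions differed in the number of lines in which they were open. A region was taken as called in a line where the study's peak table gives at least 1 peak of that line in it. Of the 52 members, 4 were called in all 22 lines (7.69%, against 3.98% of all regions), and these were the start regions of IL6R, IL6ST, JAK2 and STAT3. Calls in 11 or more lines were seen for 15 members (28.8%, against 14.8% of all regions), of which 10 were promoter and 5 distal regions. Members were promoters more often than all regions were, and within promoters the shares were closer, with 35.7% of members against 32.2% of all promoter regions in 11 or more lines and 14.3% against 13.4% in all 22. Among distal regions 20.8% of members and 8.58% of all were called in 11 or more lines. At the other end, 16 members (30.8%, against 37.1% of all regions) were called in 1 line, and 2 were called in no untreated line. Members called in 1 line belonged to H1112 for 4 regions and to PCM6 for 3, and H1112 was the deepest library. The number of members called in a line ran from 7 in KMS26 to 28 in H1112, with a median of 15. A call and a level can part, since the start region of IL6 had 43.1 CPM in PE1, the shallowest untreated library, with no call there, and 15.3 CPM in KMS12BM with a call. At a fixed level of 2 CPM, 14 members (26.9%, against 10.5% of all regions) passed in all 22 lines and 31 (59.6%, against 41.2%) in 11 or more. Among promoters these shares were 42.9% against 27.2% and 71.4% against 59.5%.

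**Figure D1:**
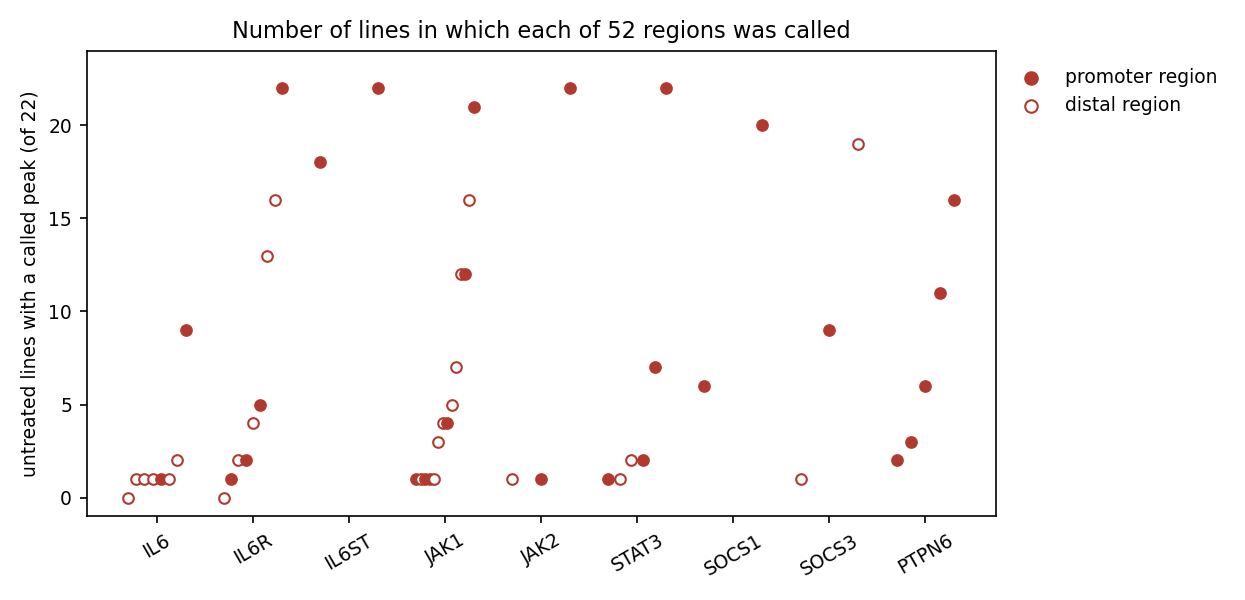
Number of untreated lines, of 22, in which each of the 52 regions was called, one point per region grouped by gene and sorted within it, with filled points for promoter and open points for distal regions. The top region of IL6R, IL6ST, JAK2 and STAT3 reached 22 lines, while no IL6 region was called in more than 9.

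Start regions differed in their CpG content. The start regions of IL6R, IL6ST, JAK1, JAK2, STAT3, SOCS1 and SOCS3 had GC contents of 63.8% to 74.8% and between 59 and 135 CpG each. The start region of IL6 had 52.1% GC and 26 CpG, and the 5 regions of PTPN6 had between 5 and 24 CpG. SOCS3 is the exception among the CpG-rich starts in that it was called in 9 lines, as was IL6. Away from the starts, members called in 16 to 19 lines had few CpG, with 16 at the SOCS3 3′ region, 13 in the IL6ST intron, 7 in the IL6R intron and 6 at the tallest distal JAK1 region.

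To order the genes by how open their starts were, the tallest promoter region of each gene was compared per kb of its width. JAK2 stood first with 60.5 ± 19.9 CPM per kb (SD, n = 22 lines), followed by STAT3 with 49.0 ± 11.6, IL6ST with 48.5 ± 14.6 and IL6R with 42.1 ± 16.2. JAK1 came next with 25.8 ± 9.67, SOCS1 had 23.1 ± 7.34, PTPN6 20.4 ± 8.34, IL6 16.3 ± 10.3 and SOCS3 14.1 ± 8.12 CPM per kb. The PTPN6 region in this order is at an internal start 12472 bp into the gene. The first-exon region and the downstream start of PTPN6 had means of 15.3 and 10.6 CPM per kb, below that of IL6. Of the 8 neighbouring pairs in this order, 1 had a mean difference over lines past the threshold, an adjusted p below 0.05. IL6R exceeded JAK1 by 0.68 on the log2(CPM per kb + 1) scale (SD 0.85, higher in 18 of 22 lines, two-sided sign-flip permutation test, adjusted p = 0.00688 over the 8 pairs). JAK2 exceeded STAT3 by 0.26 (SD 0.46, higher in 18 of 22 lines, the same permutation test, adjusted p = 0.0576), and the other 6 neighbouring pairs had adjusted p-values from 0.29 to 0.68. The only step past the threshold thus lay between IL6R and JAK1. Only neighbours were compared, in an order taken from these same levels, so a grouping of the genes was not tested. The order depends on the division by width, since by CPM of the whole region the pairs JAK2 over STAT3 (0.80) and SOCS1 over PTPN6 (1.01) also passed the threshold.

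**Figure D2:**
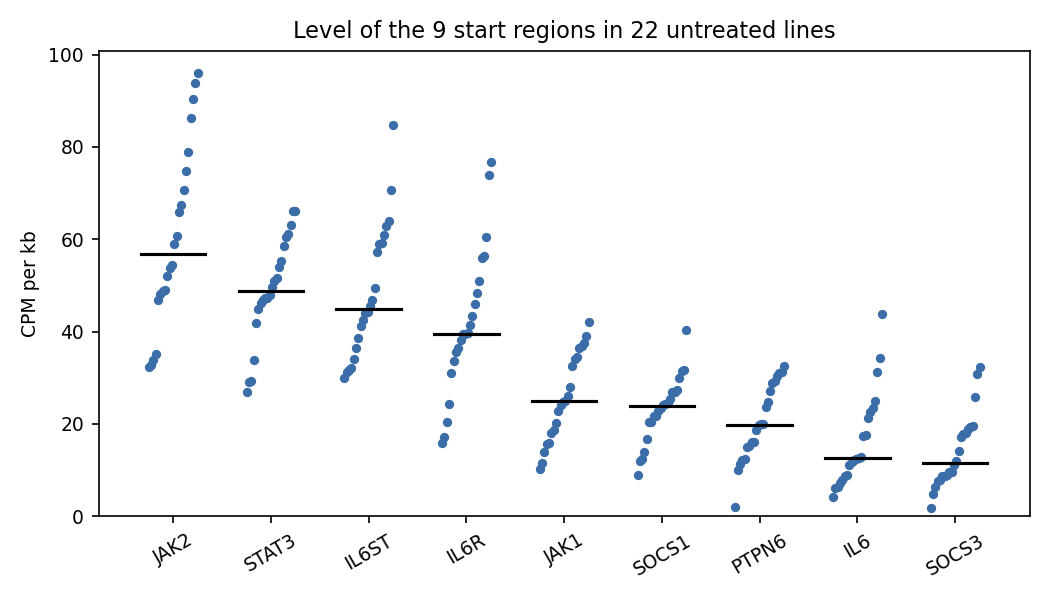
Level of the start region of each gene in CPM per kb (linear axis) in 22 untreated lines, one point per line sorted within the gene, with the median as a bar. Genes are in the order of their means, and the means of JAK2, STAT3, IL6ST and IL6R lie above those of the other 5. For PTPN6 the region shown is at an internal start, not at the first exon.

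The ligand gene differed widely between lines. The start region of IL6, at 7:22765931-22767186 over its first exons and over exons of the antisense gene IL6-AS1, had between 5.21 CPM in H1112 and 54.9 CPM in U266, with a median of 15.8. U266 had 201 counts there (interval 47.9 to 63.1 CPM) and H1112 29 (interval 3.63 to 7.48 CPM), so these lines were apart by more than counting error. After U266 the highest lines were PE1 with 43.1, XG-6 with 39.3 and KMS20 with 31.4 CPM. All other IL6 regions had means of at most 5.02 CPM. Its tallest distal region, 7:22737997-22738155 upstream of the gene, had 9.84 CPM in U266 without a call and 5.58 CPM in PCM6 with one. MM1S alone was called at 7:22752654-22753122 with 6.18 CPM and at 7:22760930-22761371 with 10.6 CPM, and XG-6 alone at 7:22736303-22736443 with 8.73 CPM. At the second of the MM1S regions another line had 9.02 CPM without a call. Summed over its 8 regions, IL6 ran from 9.39 CPM in OPM2 to 101 CPM in U266. When each library was scaled to the regions within 5 Mb of the gene, the highest line became KMS20 and the lowest H1112.

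Both receptor chains had a start open in every line. The IL6R start region, 1:154377135-154378568, ran from 22.8 CPM in PCM6 over a median of 56.8 to 110 CPM in OPM2. A second IL6R region 1240 bp upstream of the gene, 1:154375857-154376429, varied far more, from 0.347 CPM in Karpas620 to 28.2 CPM in LP1. Inside the gene, the intronic region 1:154411936-154412520 was called in 16 lines, from 2.36 CPM in RPMI8226 to 30.3 CPM in OPM2. The region 1:154417515-154418088, over a coding exon and its introns, was called in 13 lines, from 0 CPM in PE1 to 35.6 CPM in LP1. Summed over 9 regions, IL6R was highest in OPM2 with 206 CPM and lowest in Karpas620 with 39.5 CPM. These remained the highest and lowest line under local scaling, with 146 and 46.6 CPM, while the SD over lines of the summed log2 level fell from 0.61 to 0.39.

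At IL6ST the start and the intron behaved differently. The start region, 5:55290377-55291388, had between 30.2 CPM in KMS12BM and 85.7 CPM in L363, with a median of 45.5. The intronic region 16384 bp into the gene, 5:55273621-55274466, was called in 18 lines and ran from 2.43 CPM in Karpas620 to 68.8 CPM in PCM6, with a median of 15.9. Across the 22 lines the log2 levels of the start and the intronic region had a Pearson r of 0.10, a description of lines that share library and depth in both values. The SD of the log2(CPM + 1) level over lines was 0.42 at the start and 1.17 in the intron. These were higher than in 15.1% and 89.3% of promoter regions with a mean of at least 20 CPM. No region of IL6ST was distal.

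Among the kinases, JAK1 had many regions that were open in part of the lines. Its start region, 1:65431494-65432695, which lies 100742 bp into the longest span that GENCODE gives the gene, was called in 21 lines, with PE1 the exception, and ran from 12.2 CPM in KMS20 to 50.6 CPM in Karpas620. The intronic region 1:65329690-65330323 was called in 12 lines and spanned 0 CPM in KMS28 to 50.5 CPM in H1112, with a median of 4.55. For the count of 0 in KMS28 the floor of 3 counts corresponds to 1.39 CPM, which is not a Wilson limit. PCM6 with 48.4, RPMI8226 with 42.0 and Karpas620 with 35.7 CPM were the next highest lines. This region had an SD of 1.88 over lines, higher than in 98.6% of promoter regions with a mean of 5 to 20 CPM. A further pair of regions inside the gene was called in at least 11 lines. The tallest distal JAK1 region, 1:65361092-65361706, was called in 16 lines and ran from 1.22 CPM in KMS26 to 68.8 CPM in H1112. The region 1:65348344-65349169, which overlaps a coding exon, was called in 12 lines and reached 33.1 CPM in H1112. Distal regions called in 1 line each and over 5 CPM there were 1:65294664-65294812 in PCM6 (9.76 CPM), in an intron of the neighbouring gene RAVER2, and 1:65426465-65426696 in H1112 (10.4 CPM). Promoter regions at internal starts were called in 1 line likewise, 1:65347013-65347319 in H1112 (14.2 CPM), and 1:65304943-65305159 (5.80 CPM) and 1:65305659-65305996 (8.81 CPM) in KMS20. H1112 had the highest summed JAK1 level with 290 CPM, against 174 CPM in KMS21BM, the next line, and stayed highest under TMM and under local scaling.

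JAK2 in contrast was a single strong start. The region 9:4984377-4985722 had 76.4 CPM at the median and ran from 43.4 CPM in RPMI8226 to 129 CPM in KMS12BM. Each of the other JAK2 regions was called in 1 line. The distal region 9:4979323-4979577 had 14.4 CPM in PCM6 and at most 1.86 CPM in any other untreated line. The promoter region 9:4983035-4983268 had 9.70 CPM in H1112 and at most 3.13 CPM elsewhere. For the summed level the extremes were a pair of lines named alike, KMS12BM with 132 CPM and KMS12PE with 44.5 CPM, though under TMM scaling KMS27 and XG-6 took these places.

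STAT3 varied least. Its start region, 17:40540185-40541110, had between 25.0 CPM in KMS21BM and 61.2 CPM in U266, with a median of 45.1. The SD of this region was 0.37 on the log2 scale, higher than in 6.76% of promoter regions with a mean of at least 20 CPM. No other STAT3 region was called in more than 7 lines. The tallest distal region, 17:40494531-40495067 in an intron, had a median of 0.471 CPM and reached 14.2 CPM in KMS11. TTCNNNGAA matches lay in 3 of the STAT3 regions inside the gene and in none at its start. These 3 regions had mean levels of at most 4.55 CPM, and 8.73% of all regions held the motif in their central 300 bases.

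The SOCS genes differed in how evenly they were open. The SOCS1 start region, 16:11349360-11350620, was called in 20 lines and ran from 11.3 CPM in KMS21BM to 51.0 CPM in RPMI8226. The upstream SOCS1 region with the 3 interferon-type pairs, 16:11352451-11353010, lies 2390 bp from the gene in an intron of RMI2 and was called in 6 lines. Its level was between 4.49 CPM in KMS18 and 17.9 CPM in RPMI8226, with a median of 8.63. Its SD of 0.50 was higher than in 7.36% of promoter regions with a mean of 5 to 20 CPM. The SOCS3 start region, 17:76356001-76357124, was called in 9 lines and ran from 2.06 CPM in OCIMY5 to 36.4 CPM in RPMI8226, with U266 next at 34.7 CPM. At the 3′ end of SOCS3, over its 3′ UTR, the distal region 17:76352407-76352889 was called in 19 lines and ran from 7.30 CPM in OPM2 to 30.9 CPM in U266. The start and the 3′ region of SOCS3 had a Pearson r of 0.71 over the 22 lines, again between values that share library and depth. KMS11 alone was called at the distal SOCS3 region 17:76349029-76349273, with 11.5 CPM.

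The calls at PTPN6 differed by region and by line. Over its first exon, 12:7055276-7055968 had 0 counts in KMS21BM, KMS28, OPM2 and XG-6. The floor of 3 counts used for a count of 0 corresponds to 1.79, 1.39, 1.57 and 1.87 CPM in these lines, and is not a Wilson limit. The median of the 22 lines was 4.09 CPM. In contrast, KMS20 had 36.3, MM1S 29.5, KMS12PE 28.8, L363 28.0 and KMS27 26.6 CPM, and these lines together with KMS18 had the calls. Counting error did not bridge the distance between high and low lines, as the interval was 31.2 to 42.2 CPM in KMS20 and 0.43 to 2.81 CPM in U266. Further lines lay in between, among them RPMI8226 with 16.1, KMS18 with 15.7, KMS12BM with 11.6, PE1 with 8.75 and PCM6 with 5.58 CPM. RPMI8226 and KMS34 had no call at this region, though both were above KMS18. The SD of 1.88 was higher than in 98.7% of promoter regions with a mean of 5 to 20 CPM. At the downstream start, 12:7060153-7060648, other lines were called, namely KMS12BM with 25.8, OCIMY5 with 18.3 and Karpas620 with 9.02 CPM. The median there was 2.71 CPM. KMS20 with 13.1 and KMS12PE with 10.2 CPM had no call at this start, though both were above Karpas620. Over the 22 lines the log2 levels of the first-exon region and the downstream start had a Pearson r of 0.32, between values that share library and depth. The intragenic region 12:7062410-7063392, over a non-coding exon and introns 6779 bp into the gene, ran from 3.37 CPM in KMS18 to 34.8 CPM in KMS20, with a median of 11.2 and calls in 11 lines. By the rule used here the tallest promoter region was 12:7068103-7068822, at an internal start 12472 bp into the gene, which was called in 16 lines and ran from 1.38 CPM in KMS11 to 23.4 CPM in KMS34. Summed over 5 regions, PTPN6 was highest in KMS20 with 110 CPM and lowest in KMS21BM with 17.9 CPM. Local scaling reduced the SD over lines of this sum from 0.72 to 0.47, kept KMS20 highest and made KMS11 lowest, while the SD of the first-exon region remained 1.81.

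**Figure D3:**
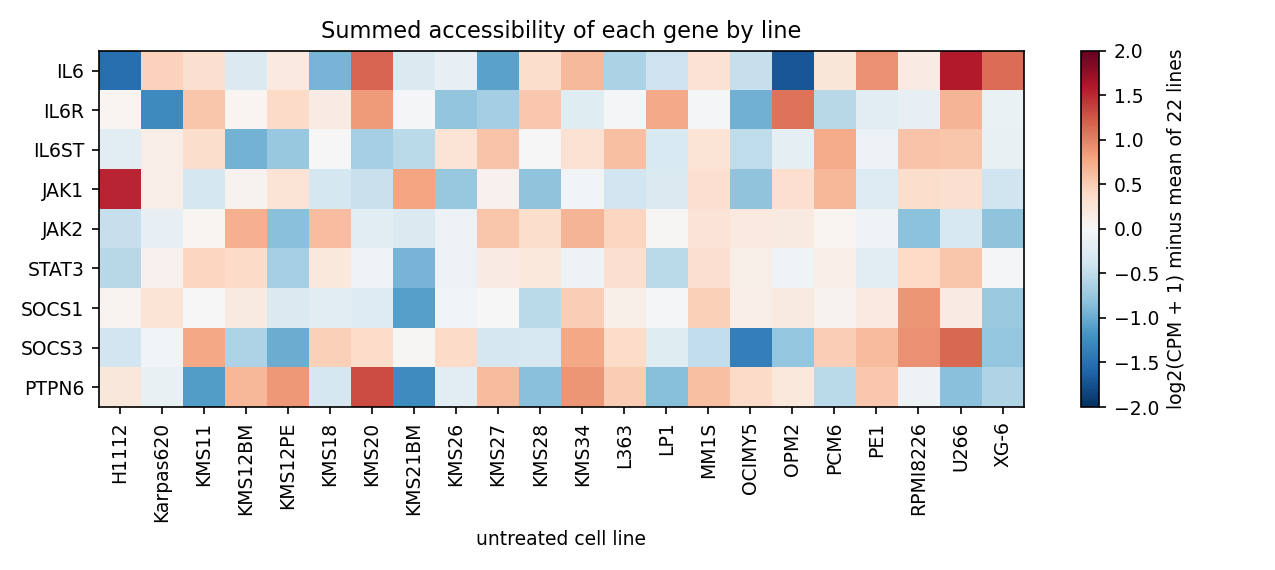
Summed log2(CPM + 1) level of the regions of each gene (rows) in each of 22 untreated lines (columns), as the difference from the mean of the gene over lines. IL6 spans the widest range, with U266 at 101 CPM and OPM2 at 9.39 CPM, and H1112 stands out for JAK1 with 290 CPM.

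Across lines the genes did not all rise and fall together, though some pairs did in part. Among the 36 pairs of member genes, Pearson r of the summed log2 levels ran from -0.33 for JAK1 with STAT3 to 0.60 for IL6ST with SOCS3, over 22 lines that share library and depth between genes. By rank the lowest pair was another one, IL6R with IL6ST (Spearman rho -0.35), and JAK1 with STAT3 had a rho of -0.098. IL6ST with STAT3 had a Pearson r of 0.53 and IL6 with SOCS3 one of 0.41. For each gene the genes on other chromosomes with the most similar levels over lines were sought, among genes of at least 5 CPM on average. The closest was RP11-243J16.7 for IL6 (r = 0.91), with SLC51B next (0.82). NOL12 came closest to STAT3 (0.82), GTPBP1 to IL6ST (0.80), ST8SIA6 to JAK1 (0.78), CRY2 to JAK2 (0.77), AC006369.2 to SOCS3 (0.75), CTA-989H11.1 to SOCS1 (0.75), DNAJB14 to IL6R (0.74) and HIST1H1PS1 to PTPN6 (0.72). These are the highest of the 24829 to 26625 values compared per gene and are given as a description.

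Whether the pathway's chromatin differed after lenalidomide was then tested in the 6 pairs, with edgeR's quasi-likelihood test on all regions and the line as a block. For the untreated libraries the labels give no treatment and name neither a vehicle nor a day. Effects of the drug, of a vehicle and of days in culture therefore cannot be told apart. After a filter on low counts, 25 of the 52 members were tested and 3 rose, with none lowered. Over all 37732 regions tested, 4.17% were raised and 1.22% lowered at the same threshold, a Benjamini-Hochberg adjusted p below 0.05. Of the regions that rose, 2 lay at PTPN6 and 1 at SOCS1, while the other 6 tested regions of PTPN6, SOCS1 and SOCS3 did not pass. At an unadjusted p below 0.05 there were 4 of the 25 members higher and 1 lower, against 10.5% and 6.87% of all regions tested, and DESeq2 called 2 raised and 0 lowered. The median log2 change of the 25 tested members was 0.04, against -0.01 over all regions tested. Depth was higher after lenalidomide in 3 of the 6 pairs. The 27 members that were not tested had low counts, and nothing is said of their response.

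The intragenic PTPN6 region 12:7062410-7063392 was higher after lenalidomide in every pair. Its level went from 11.1 to 33.3 CPM in Karpas620, from 19.6 to 39.7 in KMS27, from 12.7 to 43.3 in L363, from 8.93 to 20.7 in MM1S, from 20.9 to 44.3 in OPM2 and from 11.3 to 23.5 in RPMI8226. The lenalidomide libraries thus lay above the untreated ones except that MM1S after treatment was just below untreated OPM2. The mean was 14.1 ± 4.92 CPM before and 34.1 ± 10.1 CPM after lenalidomide (SD, n = 6), a log2 fold change of 1.28 ± 0.15 (SE, edgeR's quasi-likelihood test, adjusted p = 1.4e-06). Calls went from 5 to 6 of the 6 lines. The change within lines was between 0.98 and 1.69 on the log2(CPM + 1) scale.

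Over the first exon of PTPN6, 12:7055276-7055968 also rose, with higher values in 4 lines that had between 16.1 and 29.5 CPM there untreated, 3 of them with a call. It went from 26.6 to 62.3 CPM in KMS27, from 28.0 to 69.2 in L363, from 29.5 to 52.6 in MM1S and from 16.1 to 32.96 in RPMI8226. In Karpas620 it had 1.04 CPM before and 1.17 after, and in OPM2 0 and 1.81 CPM, values of at most 4 counts that are no evidence of a change. The groups overlapped because of these lines. The log2 fold change over the 6 pairs was 1.10 ± 0.16 (SE, edgeR's quasi-likelihood test, adjusted p = 2.5e-05). Whether the response differed between these 4 lines and the other 2 was not tested. Of the other PTPN6 regions tested, the downstream start 12:7060153-7060648 had a log2 change of -0.26 ± 0.37 (SE, edgeR, adjusted p = 0.80) and the internal start 0.04 ± 0.19 (adjusted p = 0.95).

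The upstream SOCS1 region 16:11352451-11353010 rose less. It went from 4.86 to 7.83 CPM in Karpas620, from 6.41 to 10.9 in KMS27, from 8.16 to 16.1 in L363, from 14.4 to 19.2 in MM1S, from 8.35 to 18.99 in OPM2 and from 17.9 to 23.1 in RPMI8226. Every line was higher after lenalidomide, although the ranges of the groups overlapped. Its mean went from 10.0 ± 5.06 to 16.03 ± 5.69 CPM (SD, n = 6), a log2 fold change of 0.69 ± 0.19 (SE, edgeR's quasi-likelihood test, adjusted p = 0.028), and calls from 2 to 5 lines. This call is a weak one, since it was lost with DESeq2 (adjusted p = 0.11) and without any 1 of Karpas620, KMS27, L363, MM1S or OPM2 (edgeR, adjusted p from 0.052 to 0.12). The start region of SOCS1 itself had a log2 change of 0.06 ± 0.12 (SE, edgeR, adjusted p = 0.86).

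**Figure D4:**
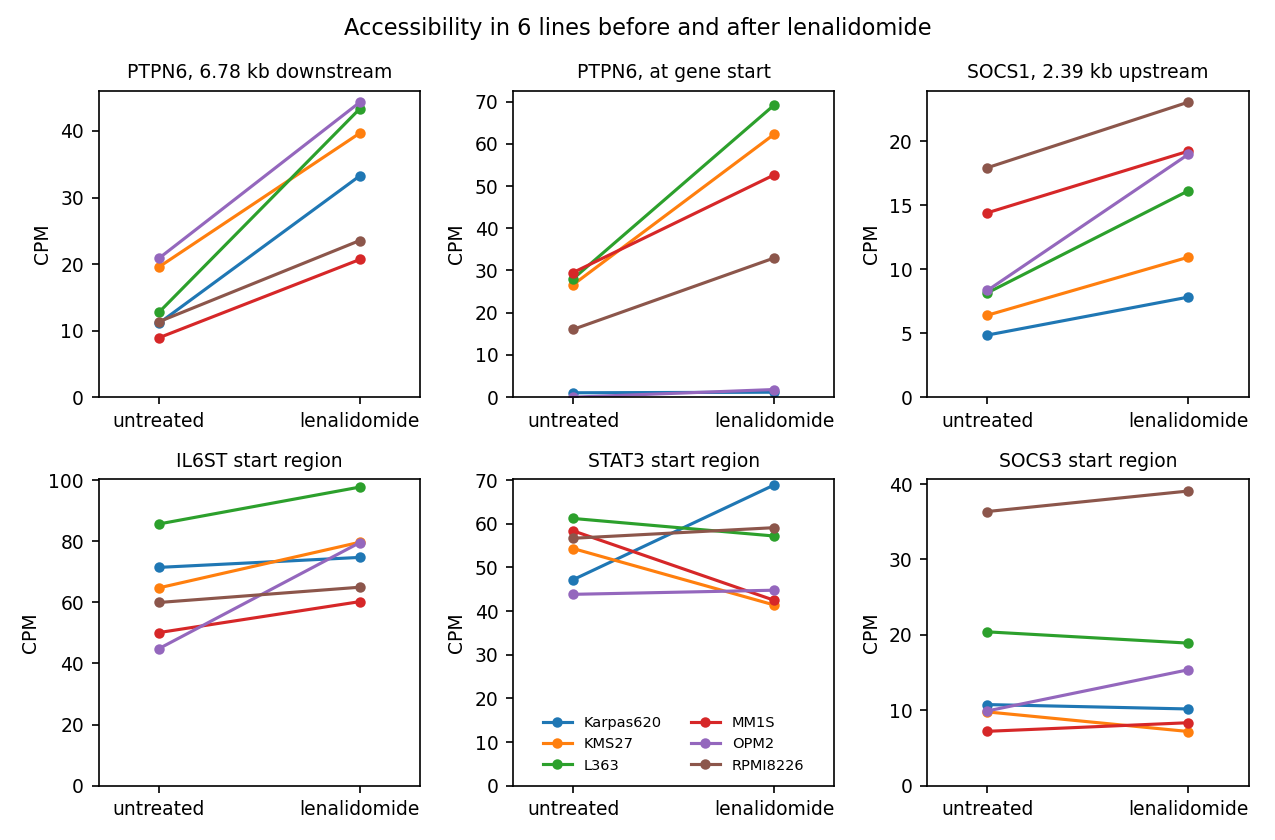
Level in CPM (linear axes from 0) of 6 regions in 6 lines without and with lenalidomide, one coloured line per cell line. The upper row has the 3 regions past the threshold, named by their distance from the gene start, and the lower row the start regions of IL6ST, STAT3 and SOCS3, which were not past it.

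The ligand, receptor, kinase and STAT3 starts were not past the threshold. IL6ST came nearest, with a start region that went from 71.5 to 74.7 CPM in Karpas620, from 64.8 to 79.7 in KMS27, from 85.7 to 97.8 in L363, from 50.1 to 60.3 in MM1S, from 44.9 to 79.6 in OPM2 and from 60.0 to 65.0 in RPMI8226. It was higher in 6 of 6 pairs, with a log2 change of 0.28 ± 0.10 (SE, edgeR's quasi-likelihood test, adjusted p = 0.080). With no filter on low counts it passed the threshold (adjusted p = 0.043), as it did with trended offsets (adjusted p = 0.033), and under the other alternatives that kept the block its adjusted p was between 0.054 and 0.36. The start regions of IL6, IL6R, JAK1, JAK2, STAT3 and SOCS3 had log2 changes between -0.08 and 0.07, with standard errors between 0.09 and 0.20 and adjusted p-values of at least 0.80. IL6 at its start went from 28.4 to 23.9 CPM in Karpas620, from 9.78 to 6.16 in KMS27, from 9.18 to 13.4 in L363, from 10.99 to 9.80 in MM1S, from 7.83 to 11.8 in OPM2 and from 16.1 to 22.1 in RPMI8226, so lines differed in sign. The most negative change of a tested member was at the distal JAK1 region 1:65361092-65361706, with -0.68 ± 0.27 (SE, edgeR, adjusted p = 0.15) and lower in 4 of 6 pairs. The distal IL6R region 1:154411936-154412520 had -0.54 ± 0.27 (SE, edgeR, adjusted p = 0.31).

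**Figure D5:**
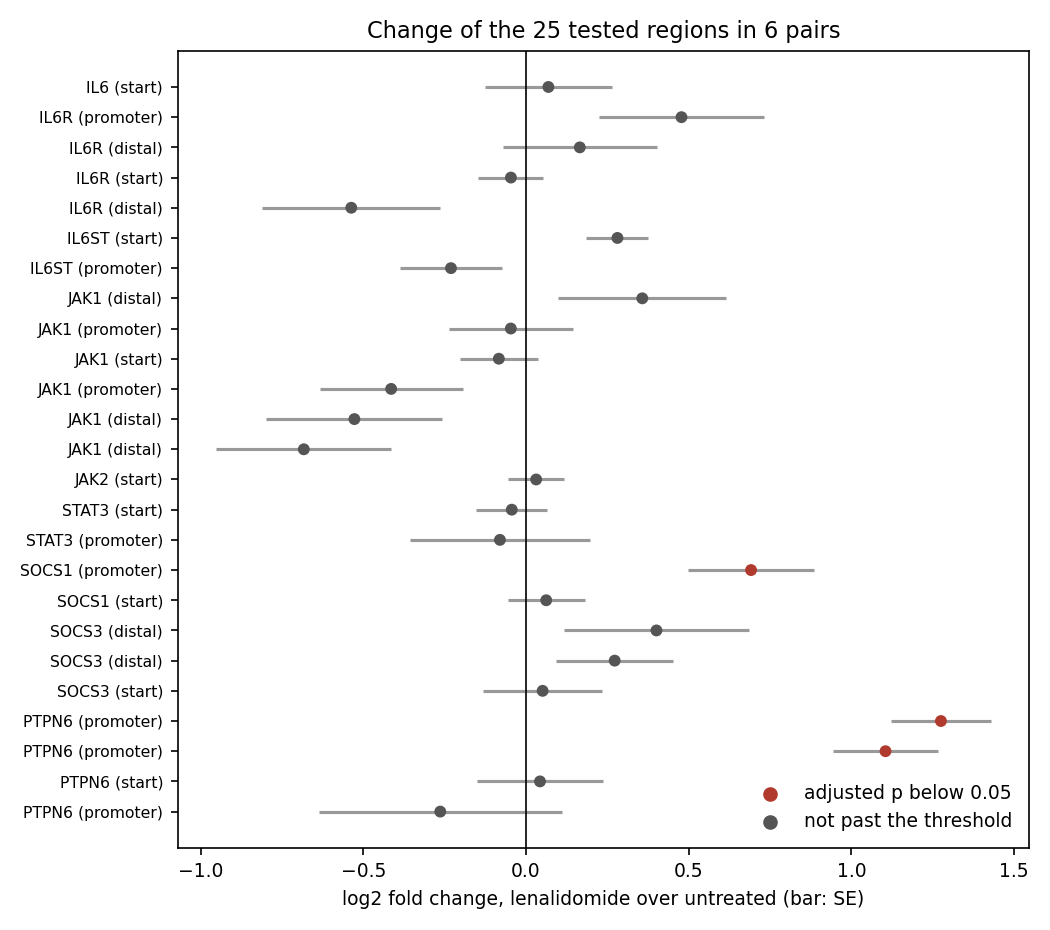
Log2 fold change of lenalidomide over untreated (edgeR, 6 pairs, line as a block) with its standard error as a bar for each of the 25 tested regions, grouped by gene. The 2 PTPN6 regions at 1.28 and 1.10 and the SOCS1 region at 0.69, in red, were past an adjusted p of 0.05.

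Summed over its regions, 1 of the 9 genes rose, and this was PTPN6. Over all 27111 genes tested 1.77% were raised and 0.361% lowered. PTPN6 went from 39.5 to 60.3 CPM in Karpas620, from 68.8 to 128 in KMS27, from 62.7 to 131 in L363, from 66.9 to 91.5 in MM1S, from 51.1 to 63.3 in OPM2 and from 40.6 to 79.3 in RPMI8226. Its log2 fold change was 0.74 ± 0.10 (SE, edgeR's quasi-likelihood test, adjusted p = 0.00018, higher in 6 of 6 pairs). The other 8 genes had log2 changes between -0.20 for JAK1 and 0.24 for SOCS3, with adjusted p-values of at least 0.32. Since the first-exon and intragenic regions of PTPN6 make up this sum, it is not separate evidence.

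Wider lists of the pathway are described by their counts, to be read against the 1.77% raised and 0.361% lowered of all genes, at which lists of this size hold few calls. Of 22 other JAK, STAT and inhibitor genes, 19 were tested, with 0 raised, 0 lowered and a median log2 change of 0.04. STAT2 had 0.32 ± 0.09 (SE, edgeR, adjusted p = 0.065, higher in 6 of 6 pairs), and CISH, another feedback inhibitor, 0.41 ± 0.13 (edgeR, adjusted p = 0.090, higher in 5 of 6 pairs). Of 14 genes of related cytokines and their receptors, 11 were tested, with 0 raised, 0 lowered and a median of 0.08. IL27 had the largest value, 0.66 ± 0.20 (edgeR, adjusted p = 0.088, higher in 5 of 6 pairs). The 11 genes commonly described as STAT3 targets, such as BCL3, MCL1 and PIM1, were all tested, with 0 raised, 0 lowered and a median of 0.02. At an unadjusted p below 0.05 (edgeR) these lists held STAT2, CISH, IL27 and BCL6, all higher. The share of all genes at this unadjusted threshold is not given here, so no trend of the lists can be read from these genes. Among all regions tested, 10.5% were higher and 6.87% lower at the same unadjusted threshold. At the adjusted threshold DESeq2 called 0 of the genes in either direction.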

How the data were processed

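ATAC-seq was performed by the authors on sorted viable cells of each line. The submitters' processing notes name GRCh37, Bowtie2 2.2.6, SAMtools 1.7 and MACS2 2.1.0.20151222, and the deposited table holds 154985 regions merged over libraries. Whether duplicates were removed, cut positions shifted, or reads or fragments counted is not given in the sources used here. The deposited raw counts per region were used. RPM values, as deposited by the authors, equal the CPM computed here. The deposited peak score, a small whole number per region and library, is not defined in the files and was taken to count the peaks that this library has in the region. A deposited list of the same regions was not used.

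Regions took the annotated gene from the count table. The members and gene lists were chosen with earlier results of these data known. Named with values were each gene's tallest promoter and tallest distal region, members past the lenalidomide threshold, and distal members called in 11 or more lines, or in 1 line with over 5 CPM there. Regions described in addition were chosen after their values were seen. Levels between genes were compared per kb, with 100000 random sign flips over 22 lines and a pseudocount of 1. Lenalidomide was tested with edgeR 4.0.16 (TMM, filterByExpr, quasi-likelihood, line as a block) in R 4.3.3 with limma 3.58.1, separately for all regions and for counts summed per gene, with Benjamini-Hochberg adjustment over all features. The pairs come from the same cell line, and deviations from the group mean correlated at 0.84 to 0.91 within lines and at most 0.13 between them. No cultures were replicated. With the line as a block, p-values of the lenalidomide fits rest on how the change varied over the pairs, not on differences in level between lines. On simulated data with 200 regions changed 2-fold, edgeR recovered 133 with 4 false calls, and DESeq2 1.42.0 recovered 97 with 0. For summed genes edgeR recovered 164 of 200 with 9 false calls. Each standard error is the absolute log2 change over the root of edgeR's F. The floor for a count of 0 is 3 counts. Gene models were from GENCODE v44 lifted to GRCh37, and motif letters were searched on both strands. Alternatives were no TMM, DESeq2, other filters, no block, trended offsets, each pair left out, sums over distal regions, TMM or local scaling of levels within 5 Mb, a pseudocount of 0.1, 2 CPM in place of calls, promoters within 1000 bp, levels not per kb, and the order without KMS12PE. The sequence of 1 region is not reported here.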

Additional observations from a re-analysis of the deposited data

Results flagged for a closer look

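Among 36 sets of 6 libraries or 6 changes, 4 had an extreme value that stood apart, where chance gives about 1.8. A value stood apart when its gap to the next value exceeded 0.625 of the range. The sets overlap, since a start region is part of the sum of its gene, so the 4 are not separate events. The summed IL6R level after lenalidomide was 204 CPM in OPM2, while the next line had 93.2 CPM, and OPM2 was already at 206 CPM before treatment. The log2 change of the summed IL6ST level was 0.67 in OPM2, against 0.04 to 0.13 in the other 5 lines. At the IL6ST start region alone the log2 change was 0.81 in OPM2, against 0.06 to 0.30 in the others, and without OPM2 the log2 fold change of this region was 0.19 (edgeR, adjusted p = 0.36). The SOCS3 start region had 39.1 CPM in RPMI8226 after lenalidomide, against 18.9 CPM in the next line, and this line also had 36.4 CPM untreated.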

How the results depend on the processing

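PTPN6 kept its calls at the intragenic and the first-exon region and in its sum under every alternative with the line as a block, except that the first-exon region was not testable when each library needed at least 10 counts and that PTPN6 has no distal region to sum (0 members raised over distal regions). Without the block, 0 regions and 0 genes were called (440 regions and 156 genes at an unadjusted p below 0.05), 0 members among them, while the log2 fold changes were 1.27, 1.11 and 0.69 for the regions and 0.76 for the gene. Of all regions, 2036 were called, 834 with DESeq2, 4092 unfiltered, 587 with at least 10 counts, and 1067 to 2503 with a pair left out. The fewest were called without MM1S (1067) and KMS27 (1310). Members raised were 2 to 4 with the block. Of all genes 578 were called, 275 with DESeq2 and 331 to 797 with a pair left out, fewest without OPM2 (331), KMS27 (347) and L363 (359).

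Changes near 0 that turned sign were those of start regions with no filter (IL6R 0.014, STAT3 0.017), with trended offsets (PTPN6 internal start -0.00023, SOCS3 -0.0059) and with DESeq2 (summed IL6R 0.00043). With a pair left out, log2 changes crossed 0 at the following regions. They ran over -0.034 to 0.17 at the start region of IL6, -0.11 to 0.028 at the IL6R start, -0.0052 to 0.26 at the IL6R distal region over the coding exon, -0.020 to 0.087 at the JAK2 start, -0.12 to 0.17 at the PTPN6 internal start, -0.036 to 0.15 at the SOCS1 start, -0.040 to 0.11 at the SOCS3 start, -0.17 to 0.029 at the STAT3 start, and for sums over -0.041 to 0.061 for IL6R, -0.031 to 0.090 for JAK2, -0.13 to 0.062 for STAT3. The cause was not tested.

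By CPM not divided by width, 3 neighbouring pairs passed (JAK2 over STAT3 0.80, SOCS1 over PTPN6 1.01, IL6R over JAK1), and STAT3 over IL6ST (-0.093), IL6ST over IL6R (-0.24) and PTPN6 over IL6 (-0.37) turned. Local scaling gave SDs of 0.39 for IL6R and 0.47 for PTPN6. At 2 CPM, 14 members passed in all 22 lines (26.9%, against 10.5% of all regions), 31 in 11 or more (59.6% against 41.2%) and 3 in 1 (5.77% against 9.49%). With promoters within 1000 bp, 15 members were promoters. At these depths 27 members had too few counts to test.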
